A study of Arabidopsis thaliana with 12 samples.

Results

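The RPP4/SNC1 cluster of Arabidopsis thaliana is a row of immune receptor genes on chromosome 4. Its 10 members were chosen by gene identifier from the 32678 genes of the deposited count table, in a proposal made with the counts and tests of all 12 libraries in view. They are RPP4 (AT4G16860), AT4G16870, AT4G16880, SNC1 (AT4G16890), AT4G16892, AT4G16900, AT4G16910, AT4G16920, AT4G16940 and RPP5 (AT4G16950). All 10 are among the 18770 genes that passed the filter on low counts. Because the choice used these libraries, every comparison of the members between genotypes is a description. No p-value of a single member is printed, and counts of members past a threshold are set beside the share of all tested genes.

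Gene counts came from poly(A) RNA of leaves of 4-week-old plants, taken 4 h after syringe infiltration with Pst AvrRps4 at an OD600 of 0.005. Pst is Pseudomonas syringae pv. tomato, a leaf bacterium, and AvrRps4 is an effector protein that it injects into plant cells. There were 4 genotypes with 3 libraries each, and the RNA of 4 plants was pooled for each. R493A carries the EDS1 variant of that name, w.tEDS1 carries wild-type EDS1, eds1-2 is an EDS1 mutant and Col-0 is the wild-type accession. All 4 groups were infiltrated, and uninfiltrated leaves were not analysed here, so no value below measures the response to infection. The labels do not give the background of R493A and w.tEDS1 or how many independent lines stand behind each, so in these 2 groups the EDS1 allele and the plant line cannot be told apart.

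TIR-NBS-LRR receptors sit inside plant cells, recognise pathogen effectors and start an immune response that runs through EDS1 and its partners PAD4 and SAG101. RPP4 and RPP5 were named for resistance to downy mildew, and SNC1 for a gain-of-function allele that switches immunity on without a pathogen and stunts the plant. Too much SNC1 protein is harmful in the same way, and many genes are known that hold its level or activity down. Clusters of such receptors often carry transposable elements, and small RNAs and chromatin marks that act on the elements can also act on the genes beside them.

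In the TAIR10.1 genome with its RefSeq annotation the 10 members span 60.8 kb, chr4:9483955-9544755, and all 10 lie on the minus strand. In order of coordinate they are AT4G16870, RPP4, AT4G16880, SNC1, AT4G16892, AT4G16910, AT4G16900, AT4G16920, AT4G16940 and RPP5. RefSeq lists 6 of them as TIR-NBS-LRR class genes, namely RPP4, SNC1, AT4G16900, AT4G16920, AT4G16940 and RPP5. AT4G16880 encodes a leucine-rich repeat family protein, AT4G16892 a noncoding RNA, and AT4G16870 and AT4G16910 are pseudogenes. SNC1 occupies chr4:9500271-9505972 with 5 exons, and RPP4 chr4:9488466-9495837 with 6.

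AT4G16870 is the member with the largest difference between genotypes, and its position is therefore shown in detail. It covers chr4:9483955-9488397 and has 1 exon of 4443 bases. On the minus strand its annotated start lies 68 bases downstream of the annotated 3′ end of RPP4. On either side stands the same sequence of 130 bases in the same orientation, at chr4:9483836-9483965 and chr4:9488459-9488588, and the stretch with both copies measures 4753 bases. Just outside the 2 copies, 5 bases are also repeated. They are in capitals in the edges printed here, minus strand, chr4:9488564-9488593 for the upstream edge and chr4:9483831-9483860 for the downstream edge.
upstream edge: GTTGAtatagagaatatatgtcataatgtc
downstream edge: aaagtcaatacattctccttccataGTTGA
Direct repeats flanked by a short repeat of the target are the usual layout of a retrotransposon with long terminal repeats. The sequence around the stretch aligned to RPP5 at 90.9% identity over 585 aligned positions on the downstream side and at 92.0% over 510 on the upstream side. The aligned flanks stand 4867 bases apart at RPP4 and 29 bases apart in RPP5. The upstream repeat holds 123 bases of the annotated last exon of RPP4, so the RPP4 transcript as annotated ends inside it.

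The sum of gene counts was 19273912 to 24572145 per library. Entries of the table that name no gene took 9.69% to 22.9% of a column, and most of these were reads with more than 1 mapping place, at 14.2%, 19.7% and 9.31% in R493A replicates 1, 2 and 3 and 7.28% to 14.3% in the other 9 libraries. Levels are given in CPM, the reads of a gene as a share of the library size after TMM scaling. EDS1, the gene the groups differ in, had 24.7 ± 5.96 CPM in R493A, 144 ± 45.9 in w.tEDS1, 3.94 ± 0.141 in eds1-2 and 42.5 ± 25.9 in Col-0 (SD, n = 3 each). Col-0 replicates 1 and 2 stood apart from the other 10 libraries on the first principal component, at −62.9 and −92.6, and were alone in their sequencing lane. R493A replicate 2 and eds1-2 replicate 1 were sequenced in another run than the rest. The 6 leaf mesophyll markers summed to 31280 to 35346 CPM in R493A, 37034 to 39259 in w.tEDS1, 36748 to 40460 in eds1-2 and 23270 to 33439 in Col-0. The 4 root markers summed to at most 32.3 CPM in any library. By group mean, SCR had 12.8 to 16.4 CPM, SHR 2.65 to 4.21 and PYK10 2.08 to 4.45. SHV2, a root hair gene, was at 0 in all libraries of R493A, eds1-2 and Col-0.

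AT4G16870 was nearly silent in the R493A leaves and clearly expressed in the leaves of the other 3 genotypes. It had 3.05, 2.24 and 1.44 CPM in the R493A libraries, from 69, 49 and 28 reads. The w.tEDS1 libraries had 51.9, 78.4 and 71.9 CPM, and the eds1-2 libraries 82.1, 82.4 and 50.2 CPM. Col-0 libraries had 63.3, 40.0 and 56.3 CPM. Every R493A library thus lay more than an order of magnitude below every other library, and the other 3 groups overlapped one another. In bulk leaves, fewer cells with the transcript and less transcript per cell cannot be told apart.

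**Figure D1:**
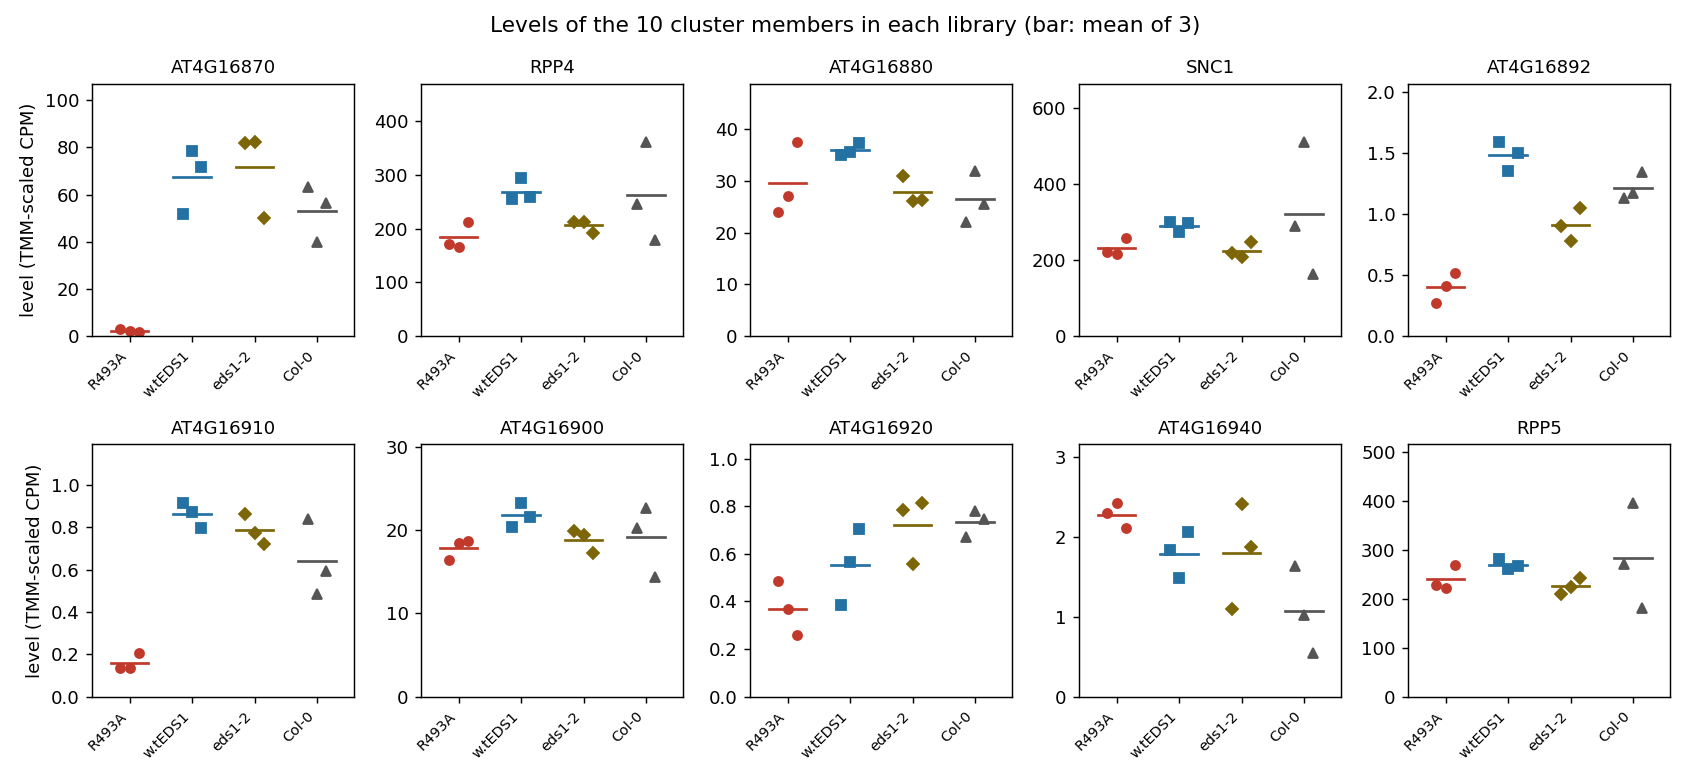
Levels of the 10 cluster members in TMM-scaled CPM (y axis, linear, each panel with its own scale from 0) in the 4 genotypes (x axis), with 1 symbol per library and a bar for the mean of 3. AT4G16870, AT4G16892 and AT4G16910 are lower in all 3 R493A libraries than in any other library, while RPP4, SNC1 and RPP5 spread most in Col-0.

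The R493A mean of AT4G16870, 2.25 ± 0.807 CPM, was 0.0333 of the w.tEDS1 mean of 67.4 ± 13.8, 0.0314 of the eds1-2 mean of 71.6 ± 18.5 and 0.0422 of the Col-0 mean of 53.2 ± 11.9 (SD, n = 3 each). The log2 fold change of R493A was −4.89 against w.tEDS1 (SE 0.33, 95% interval −5.61 to −4.18), −4.98 against eds1-2 (SE 0.33, −5.70 to −4.26) and −4.55 against Col-0 (SE 0.32, −5.26 to −3.84). Those 3 comparisons share the R493A libraries and are not independent of one another. Over the 16 alternative analyses of each comparison the log2 fold change lay between −5.27 and −4.32. It stood at −4.62 against Col-0 replicate 3 alone, so the 2 Col-0 libraries that stood apart did not carry the difference.

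In the comparisons without R493A, AT4G16870 was not called. Its log2 fold change was −0.09 in w.tEDS1 against eds1-2 (95% interval −0.67 to 0.49), 0.34 in w.tEDS1 against Col-0 (−0.24 to 0.92) and 0.43 in eds1-2 against Col-0 (−0.15 to 1.01), none past the threshold. The last interval leaves room for a change of up to 1.01 on the log2 scale. Of the exon windows of 100 bases and of 50 bases in AT4G16870, 100% occur once in the genome, so its reads can be placed. Its only annotated relative among the long BLAST alignments that were kept, AT1G44510 at 77.8% identity, had 0 counts in all 12 libraries. Shorter alignments were left out.

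Lower levels in R493A were also seen for the noncoding RNA AT4G16892 and the pseudogene AT4G16910, at far lower counts. They are neighbours on the other side of SNC1 from RPP4, the noncoding RNA 349 bases upstream of SNC1 at chr4:9506322-9508337 and the pseudogene at chr4:9509676-9511760. AT4G16892 had 6, 9 and 10 reads in the R493A libraries, 33, 31 and 32 in the w.tEDS1 libraries, 23, 18 and 22 in the eds1-2 libraries and 27, 24 and 27 in the Col-0 libraries. AT4G16910 had 3, 3 and 4 reads in R493A, against 19, 20 and 17 in w.tEDS1, 22, 18 and 15 in eds1-2 and 20, 10 and 12 in Col-0. Again no R493A library reached the lowest library of the other groups.

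In CPM, AT4G16892 averaged 0.397 ± 0.125 in R493A, 1.48 ± 0.122 in w.tEDS1, 0.910 ± 0.140 in eds1-2 and 1.21 ± 0.111 in Col-0 (SD, n = 3 each). Its log2 fold change in R493A was −1.89 against w.tEDS1 (95% interval −2.53 to −1.25), −1.19 against eds1-2 (−1.85 to −0.54) and −1.61 against Col-0 (−2.25 to −0.96). The w.tEDS1 libraries of this gene all lay above its eds1-2 and Col-0 libraries. AT4G16910 averaged 0.159 ± 0.0409 CPM in R493A, 0.861 ± 0.0614 in w.tEDS1, 0.786 ± 0.0731 in eds1-2 and 0.641 ± 0.181 in Col-0. Its log2 fold change in R493A was −2.41 against w.tEDS1 (−3.19 to −1.63), −2.28 against eds1-2 (−3.06 to −1.50) and −2.0 against Col-0 (−2.80 to −1.20). No strand was marked in these libraries, so sense and antisense reads at AT4G16892 cannot be told apart.

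Counted over all members, 3 of 10 were lower in R493A than in w.tEDS1 by the edgeR quasi-likelihood test at an adjusted p under 0.05, and the same comparison called 0.208% of all tested genes lower. Against eds1-2 the count was 1 of 10, AT4G16870, where 0.0266% of all tested genes were called lower. Against Col-0 it was again 3 of 10, with 1.51% of all tested genes called lower. No member was called higher in R493A, and since the members were chosen from these comparisons nothing is read from the counts. The median log2 fold change of the 10 members was −0.44, −0.12 and −0.49 in R493A against w.tEDS1, eds1-2 and Col-0 in that order, beside 0.01, 0.00 and 0.01 over all tested genes. In 3 of 10 members, AT4G16870, AT4G16892 and AT4G16910, every R493A library lay below every other library, as it did in 116 tested genes or 0.618%.

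The calls of the last-named 2 genes rest on few reads. Against w.tEDS1, they passed the threshold in 6 of 16 alternative analyses for AT4G16892 and in 7 of 16 for AT4G16910. Both were lost when any 1 of the 6 R493A and w.tEDS1 libraries was left out, and both were lost in the main sequencing run alone, although the log2 fold change stayed between −2.11 and −1.66 for AT4G16892 and between −2.63 and −2.30 for AT4G16910. Against Col-0, both were lost without Col-0 replicate 1 or without any 1 R493A library, and AT4G16892 also without Col-0 replicate 2. Their log2 fold changes there stayed between −1.82 and −1.38 and between −2.20 and −1.74. Among the long BLAST alignments that were kept, AT4G16910 has 14 annotated relatives at 88.6% to 92.8% identity elsewhere in the genome. The most abundant of these had 18 reads over the 12 libraries. Of its own exon windows of 100 bases, 99.1% occur once in the genome.

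**Figure D2:**
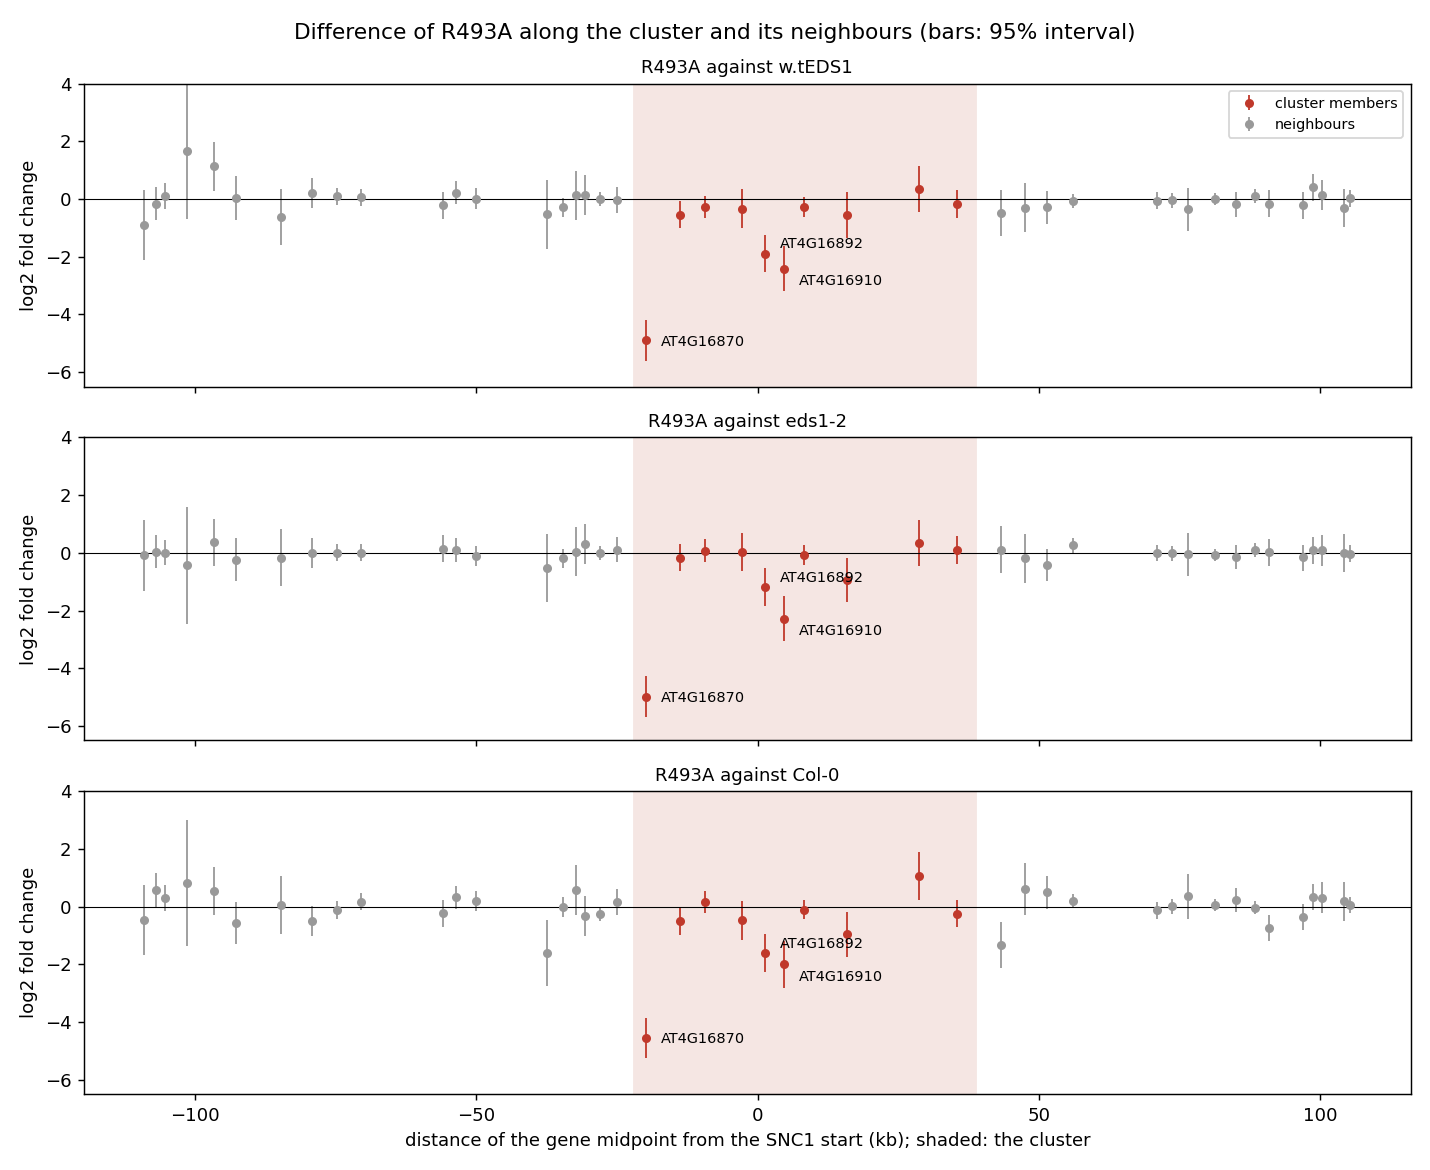
Log2 fold change of R493A (y axis) against w.tEDS1, eds1-2 and Col-0 for each tested gene in and beside the cluster, by the distance of its midpoint from the SNC1 start in kb (x axis), with 95% intervals. AT4G16870 stands at −4.89, −4.98 and −4.55, AT4G16892 and AT4G16910 lie between −2.41 and −1.19, and the 35 neighbours in grey range from −1.60 to 1.67. In the top panel 1 interval runs beyond the axis.

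The genes beside the cluster gave a count of calls near that of the whole genome. Of the 44 neighbours, which are the genes with identifiers from AT4G16700 to AT4G17100 that are not members, 35 were tested, and edgeR called 0 in R493A against w.tEDS1, 0 against eds1-2 and 0 against Col-0, where 0.208%, 0.0266% and 1.51% of all tested genes were called lower. At an unadjusted p under 0.05 the counts were 1, 1 and 4 in that order, beside 4.6%, 2.15% and 19.5% of all tested genes. DESeq2 called 0, 0 and 3 neighbours, without its share of all tested genes beside them, so nothing is read from these DESeq2 counts. The neighbours' log2 fold changes in R493A ranged from −0.90 to 1.67 against w.tEDS1, from −0.54 to 0.36 against eds1-2 and from −1.60 to 0.83 against Col-0, with medians of −0.03, 0.00 and 0.07. In the whole genome 6 genes differed between R493A and all 3 other groups, and AT4G16870 was 1 of the 4 that were lower. The other 3 lower genes were AT1G57650, FLC and AGL62, and the 2 higher genes were AT5G24240 and MAF5. They were named after their values were seen, and FLC and MAF5 encode related MADS-box regulators of flowering time.

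The main receptors were far more abundant, and none of their differences in R493A passed the threshold. Per kb of exon, the R493A libraries averaged 45.7 CPM for RPP4, 45.2 for SNC1, 41.3 for RPP5 and 24.8 for AT4G16880. The remaining members followed with 4.74 for AT4G16900, 0.506 for AT4G16870, 0.407 for AT4G16940, 0.279 for AT4G16892, 0.0761 for AT4G16910 and 0.0651 for AT4G16920. RPP4, SNC1 and RPP5 were also the 3 highest members per kb in w.tEDS1, eds1-2 and Col-0, while AT4G16870 was the fifth there, with 15.2, 16.1 and 12 CPM per kb. Within the leading trio the order is not resolved in R493A, since the gaps are smaller than the relative spread of RPP4, whose SD was 25.6 at a mean of 184 CPM.

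SNC1 had 4989, 4691 and 5018 reads in the R493A libraries, against 6194, 6281 and 6347 in w.tEDS1, 5533, 4854 and 5181 in eds1-2 and 6907, 10496 and 3269 in Col-0. The R493A libraries lay below the w.tEDS1 libraries and they overlapped the eds1-2 and Col-0 libraries. Col-0 held both the highest and the lowest library of all, 3.14 times apart in CPM. The mean was 231 ± 23.6 CPM in R493A, 290 ± 14.2 in w.tEDS1, 225 ± 20.7 in eds1-2 and 321 ± 176 in Col-0 (SD, n = 3 each). The log2 fold change of R493A was −0.33 against w.tEDS1 (95% interval −0.99 to 0.34), 0.04 against eds1-2 (−0.62 to 0.70) and −0.47 against Col-0 (−1.14 to 0.19). None passed the threshold.

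RPP4, the receptor whose annotated 3′ end lies in the repeat beside AT4G16870, had 172, 166 and 213 CPM in R493A. It had 255, 294 and 259 CPM in w.tEDS1, 213, 213 and 192 in eds1-2, and 246, 362 and 179 in Col-0. The R493A and w.tEDS1 libraries did not overlap, and the R493A and eds1-2 libraries did. Means were 184 ± 25.6, 269 ± 21.9, 206 ± 12.1 and 262 ± 92.5 CPM in the order R493A, w.tEDS1, eds1-2 and Col-0 (SD, n = 3 each). The log2 fold change of R493A was −0.55 against w.tEDS1 (95% interval −1.02 to −0.08), −0.17 against eds1-2 (−0.63 to 0.30) and −0.51 against Col-0 (−0.98 to −0.05), and none passed the threshold after adjustment over all tested genes. Across the same 12 libraries the range of AT4G16870 was thus much wider than that of RPP4, 68 bases away.

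RPP5 had 228, 222 and 269 CPM in R493A, 280, 260 and 267 in w.tEDS1, 209, 224 and 243 in eds1-2 and 271, 396 and 180 in Col-0. R493A overlapped every other group. The log2 fold change of R493A was −0.17 against w.tEDS1 (95% interval −0.65 to 0.32), 0.09 against eds1-2 (−0.40 to 0.57) and −0.24 against Col-0 (−0.72 to 0.25). Only 70.3% of the exon windows of 100 bases and 54.9% of those of 50 bases in RPP5 occur once in the genome, so its level is the least certain of the 3.

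**Figure D3:**
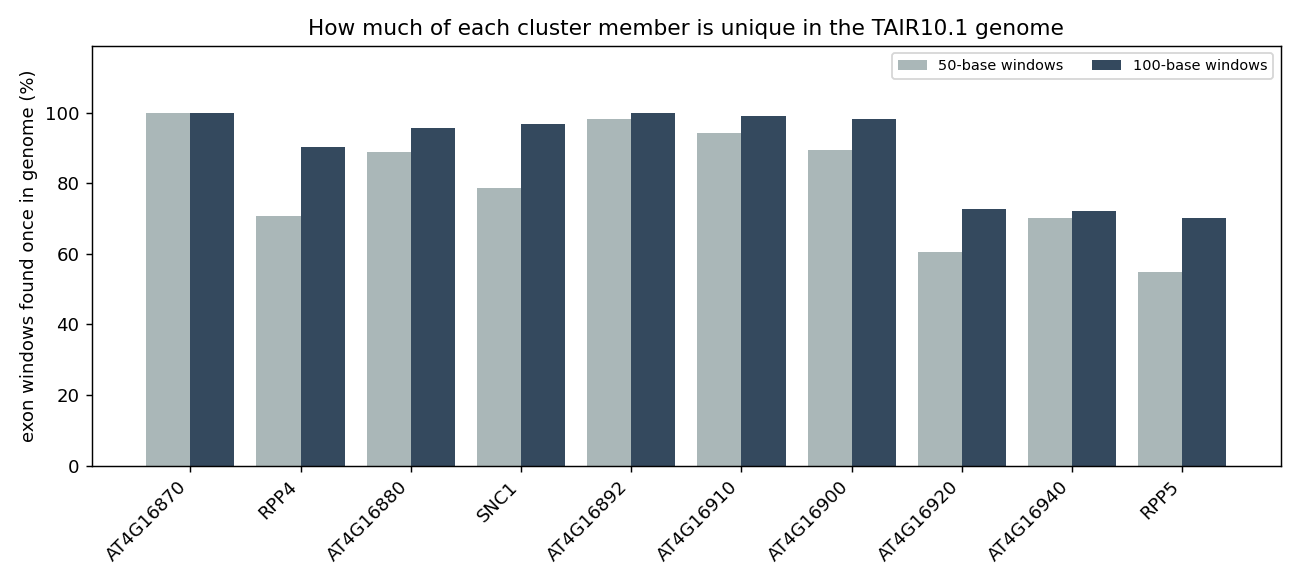
Share of exon windows that occur once in the TAIR10.1 genome in percent (y axis) for each member in chromosome order (x axis), with light bars for windows of 50 bases and dark bars for 100 bases. AT4G16870 is at 100% in both, while AT4G16920, AT4G16940 and RPP5 are at 70.3% to 72.8% for 100 bases.

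Against Col-0 the direction for the abundant receptors depended on which Col-0 libraries were used. With Col-0 replicates 1 and 2 left out, the log2 fold change of R493A against Col-0 became 0.52 for SNC1, 0.05 for RPP4 and 0.42 for RPP5. Without Col-0 replicate 3 it became −0.79 for SNC1, −0.72 for RPP4 and −0.47 for RPP5, and SNC1 and RPP4 then passed the threshold. PAD4, a gene induced in EDS1 immunity, was spread in the same libraries, with 12.8 to 14.0 CPM in R493A, against 48.6, 302 and 27.2 CPM in Col-0 replicates 1, 2 and 3. The part of that spread in the receptor values was not tested.

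The other receptor-type members were expressed at lower levels. AT4G16900 had 16.4, 18.5 and 18.7 CPM in R493A, 20.4, 23.3 and 21.6 in w.tEDS1, 19.9, 19.4 and 17.2 in eds1-2 and 20.3, 22.7 and 14.4 in Col-0. AT4G16880, the leucine-rich repeat gene between RPP4 and SNC1, had 24.0, 27.1 and 37.6 CPM in R493A, 35.0, 35.7 and 37.4 in w.tEDS1, 31.0, 26.1 and 26.4 in eds1-2 and 22.1, 31.9 and 25.6 in Col-0. For both genes the R493A libraries overlapped those of eds1-2 and Col-0, and the log2 fold change of R493A stayed between −0.29 and 0.15 in all 3 comparisons. The R493A libraries of AT4G16900 all lay below its w.tEDS1 libraries, and those of AT4G16880 overlapped them. In R493A against w.tEDS1, 6 of 10 members separated in this direction, as did 1442 of 18770 tested genes. Since the members were chosen from these comparisons, nothing is read from that count.

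AT4G16920 and AT4G16940 were near the lower limit of what was tested. AT4G16920 had 11, 8 and 5 reads in R493A, 8, 13 and 15 in w.tEDS1, 20, 13 and 17 in eds1-2 and 16, 16 and 15 in Col-0. Its log2 fold change in R493A was −0.56 against w.tEDS1 (95% interval −1.35 to 0.23), −0.94 against eds1-2 (−1.70 to −0.17) and −0.96 against Col-0 (−1.73 to −0.19), none past the threshold. AT4G16920 shares bases with AT4G16915 on the opposite strand and has 92.3% coding identity with RPP5, the closest of the 15 receptor pairs, so some of its reads may not have been placed.

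AT4G16940 was the one member with a positive log2 fold change in R493A in all 3 comparisons. It had 2.30, 2.43 and 2.11 CPM in R493A, 1.83, 1.48 and 2.06 in w.tEDS1, 1.1, 2.41 and 1.87 in eds1-2 and 1.64, 1.02 and 0.547 in Col-0. R493A lay above every w.tEDS1 and Col-0 library and overlapped eds1-2. The log2 fold change of R493A was 0.35 against w.tEDS1 (95% interval −0.45 to 1.15), 0.35 against eds1-2 (−0.45 to 1.15) and 1.08 against Col-0 (0.24 to 1.91), none past the threshold, and 2.06 against Col-0 replicate 3 alone.

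The 6 receptor genes gave 0 calls by edgeR in R493A against w.tEDS1, eds1-2 or Col-0, where edgeR called 0.208%, 0.0266% and 1.51% of all tested genes lower. DESeq2 and limma-voom also gave 0, without their shares of all tested genes beside them, so nothing is read from those counts. At an unadjusted edgeR p under 0.05 the counts were 1, 1 and 3 of 6, beside 4.6%, 2.15% and 19.5% of all tested genes. Since these comparisons chose the members, nothing is read from the edgeR counts. Their median log2 fold changes were −0.31, −0.02 and −0.36, beside 0.01, 0.00 and 0.01 over all tested genes. A count of 0 does not show equal levels, since the 95% intervals of SNC1 alone run from −1.14 to 0.70 over the 3 comparisons.

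In the comparisons without R493A, no member was called in w.tEDS1 against eds1-2, where edgeR called 0.0746% of all tested genes in either direction, in w.tEDS1 against Col-0 (1.09%) or in eds1-2 against Col-0 (2.04%). DESeq2 and limma-voom also called 0 members in each, without their shares of all tested genes beside them, so nothing is read from those counts. At an unadjusted edgeR p under 0.05 the counts were 1, 1 and 0, beside 2.66%, 22.7% and 22.9% of all tested genes. In w.tEDS1 against eds1-2, 8 of 10 members had a positive log2 fold change, as did 8955 of 18770 tested genes. The median of the 10 members was 0.23, beside −0.01 over all tested genes. Among the 8 were RPP4 at 0.38 (95% interval −0.08 to 0.85), SNC1 at 0.37 (−0.30 to 1.03) and RPP5 at 0.26 (−0.23 to 0.74). The w.tEDS1 libraries lay above all eds1-2 libraries for these 3 and for AT4G16880, AT4G16892 and AT4G16900. How many of all tested genes separate in this direction was not counted, so nothing is read from this separation. The largest log2 fold change of a member in w.tEDS1 against eds1-2 was that of AT4G16892, 0.70 (0.12 to 1.28).

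**Figure D4:**
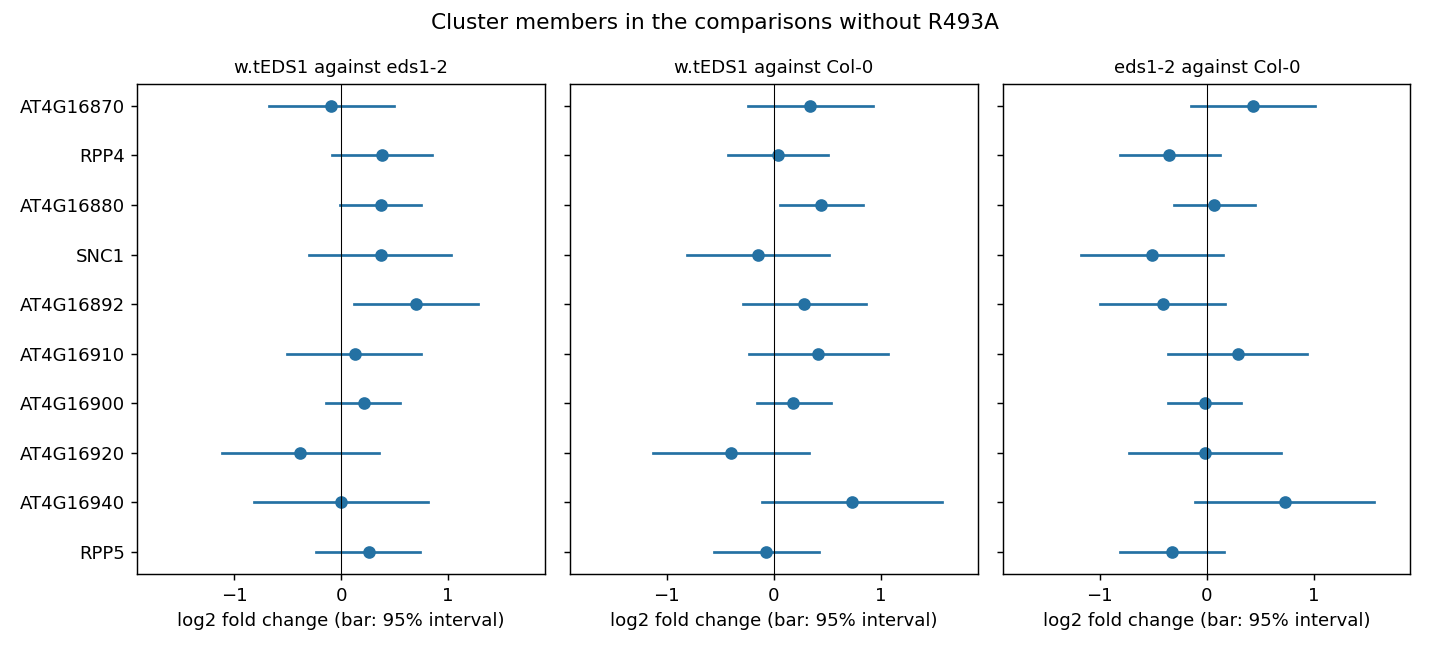
Log2 fold change (x axis) with its 95% interval for each member in chromosome order (y axis) in w.tEDS1 against eds1-2, w.tEDS1 against Col-0 and eds1-2 against Col-0. All values lie between −0.51 and 0.73, and none passed the threshold.

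In eds1-2 against Col-0, SNC1 stood at −0.51 (95% interval −1.18 to 0.15), RPP4 at −0.35 (−0.81 to 0.12) and RPP5 at −0.33 (−0.81 to 0.16). Without Col-0 replicate 3, SNC1 at −0.82 and RPP5 at −0.56 passed the threshold, and with Col-0 replicates 1 and 2 left out the values turned to 0.48 for SNC1, 0.22 for RPP4 and 0.34 for RPP5. In w.tEDS1 against Col-0 SNC1 stood at −0.15 and RPP4 at 0.04, and against Col-0 replicate 3 alone at 0.84 and 0.60. AT4G16940 stood at 0.73 in both comparisons and at 1.71 in both against Col-0 replicate 3 alone.

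Among the 6 receptor genes, RPP4, SNC1, AT4G16900 and RPP5 varied together from library to library, and AT4G16920 and AT4G16940 did not follow them. On log2(CPM + 0.5), SNC1 and RPP5 had a Pearson correlation of 0.99 and a Spearman correlation of 0.94 over the 12 libraries, 0.94 (Pearson) without the 2 libraries farthest in SNC1, Col-0 replicates 2 and 3, and 0.93 over the 9 libraries of the other genotypes. RPP4 and SNC1 had 0.86 (Spearman 0.81), and 0.77 without Col-0 replicate 2 and w.tEDS1 replicate 2. The other pairs among these 4 genes had Pearson correlations of 0.71 to 0.84 over the 12 libraries. AT4G16920 had −0.01 to 0.24 and AT4G16940 −0.22 to 0.17 with the 4 genes, and the correlation between AT4G16920 and AT4G16940 was −0.58. These are descriptions over libraries that share preparation and sequencing, and SNC1 and RPP5 have 79.7% coding identity, so some reads may be exchanged. The correlation of AT4G16870 with its neighbour RPP4 changed sign with the libraries used, at 0.48 over the 12 libraries, 0.65 over the 9 outside Col-0 and −0.28 over the 9 outside R493A. With AT4G16910 it was 0.95, 0.97 and 0.66 over the same sets.

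**Figure D5:**
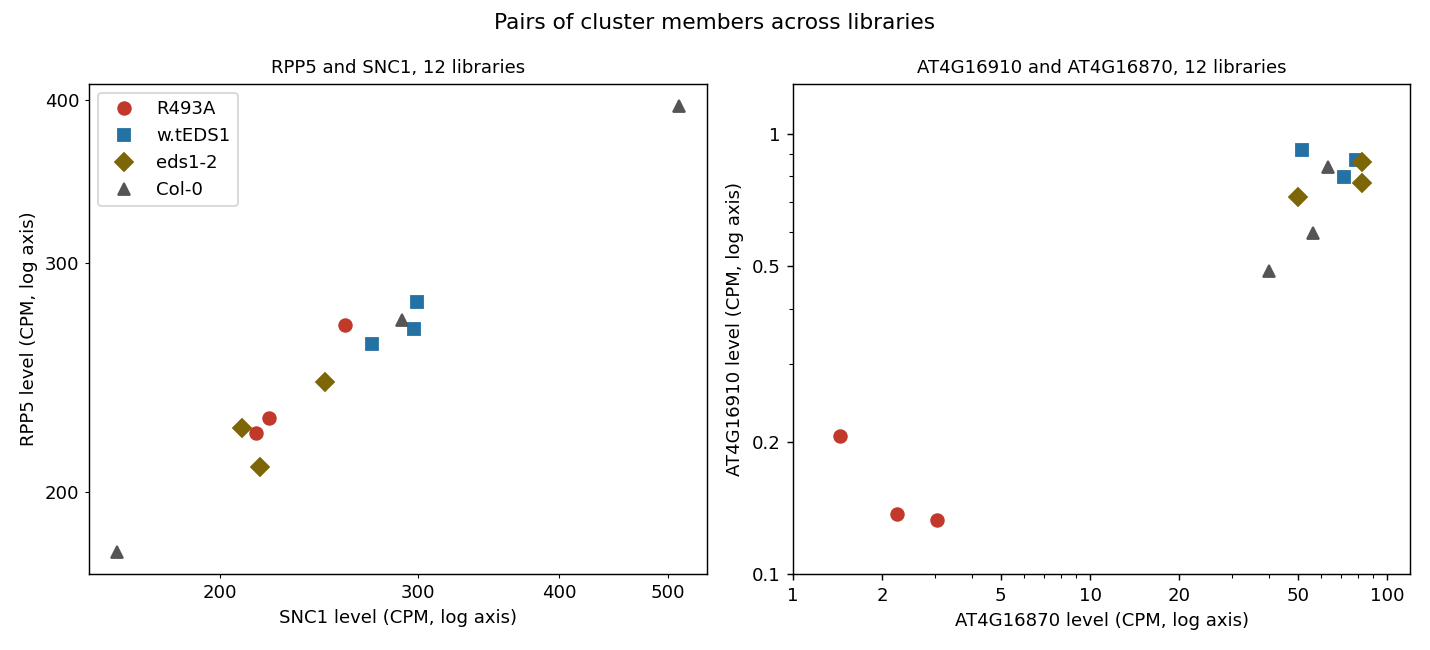
Level of RPP5 against SNC1 (left) and of AT4G16910 against AT4G16870 (right) in CPM on log axes, with 1 symbol per library. SNC1 and RPP5 share 1 line that runs through all 4 genotypes, with Col-0 at both ends, whereas the 3 R493A libraries form a group of their own in the right panel, at 1.44 to 3.05 CPM of AT4G16870.

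Outside the cluster, the 5 tested genes most like SNC1 over the 12 libraries were LAZ5, XIH, AT4G19510, LARP6b and RPS6, with Pearson correlations of 0.981, 0.966, 0.962, 0.960 and 0.956. LAZ5, AT4G19510 and RPS6 encode TIR-NBS-LRR receptors, XIH a myosin and LARP6b an RNA-binding protein. Without Col-0 replicates 2 and 3 the correlations of these 5 were 0.890 to 0.933. The 5 most like RPP4 were AT1G26130, AT5G01970, AT1G52315, AT3G48880 and RPS6, with 0.935, 0.929, 0.923, 0.913 and 0.910.

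Since RPP4 and SNC1 moved together, the 140 bases before each annotated start are printed, minus strand, chr4:9495838-9495977 for RPP4 and chr4:9505973-9506112 for SNC1. Capitals mark TTGAC, the core of the W-box bound by WRKY transcription factors, searched on both strands.
RPP4 upstream: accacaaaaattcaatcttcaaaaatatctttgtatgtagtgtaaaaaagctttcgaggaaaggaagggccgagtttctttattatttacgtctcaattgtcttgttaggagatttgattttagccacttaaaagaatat
SNC1 upstream: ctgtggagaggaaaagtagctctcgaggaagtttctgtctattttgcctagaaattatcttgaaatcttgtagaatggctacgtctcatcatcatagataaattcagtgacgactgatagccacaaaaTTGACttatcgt
The SNC1 window holds the motif 1 time and the RPP4 window 0 times, and 28.9% of the windows of this length before the 27443 protein-coding genes hold it. The 2 windows have 51.2% identity, against 65.0% for the coding sequences. Over the 15 pairs of receptor genes, coding identity ran from 61.5% to 92.3% with a median of 66.1%.

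The genes known to restrain or assist SNC1 were followed as a list. The list of 45 includes CPR1, which marks SNC1 for degradation, the copine BON2, the chromatin remodeller DDM1 and the chaperone partners SGT1B and RAR1, and 43 of 45 were tested. Not tested were BON1, another copine, with 0 to 4 reads summed over the libraries of a group, and AT2G14760 (bHLH84), with 0 reads. edgeR called 0 in R493A against w.tEDS1, eds1-2 and Col-0, where 0.208%, 0.0266% and 1.51% of all tested genes were called lower. It called 0 in w.tEDS1 against eds1-2 and against Col-0, beside 0.0746% and 1.09% of all tested genes in either direction. In eds1-2 against Col-0 it called 2, both lower, where 1.44% of all tested genes were called lower. At these shares nothing is read from the edgeR counts. DESeq2 called 0, 0, 5, 0, 5 and 7 in that order. Its share of all tested genes was not set beside these DESeq2 counts, so nothing is read from them. At an unadjusted p under 0.05 the counts were 1, 0, 8, 0, 8 and 10 in the same order. As shares of the 43 genes these unadjusted counts were 2.33%, 0%, 18.6%, 0%, 18.6% and 23.3%, beside 4.6%, 2.15%, 19.5%, 2.66%, 22.7% and 22.9% of all tested genes, so those against Col-0 were near the share of all genes. BAP2, whose product binds copines, had a log2 fold change of −3.25 in eds1-2 against Col-0 (SE 0.62, edgeR adjusted p = 0.0298), and the ubiquitin ligase AT1G14200, known as SNIPER1, −1.1 (SE 0.24, edgeR adjusted p = 0.0422). Both calls were lost with Col-0 replicates 1 and 2 left out, with values of −1.19 for BAP2 and −0.98 for AT1G14200, and also when Col-0 replicate 2 or 1 of the eds1-2 libraries was dropped. The BAP2 call was further lost without Col-0 replicate 1.

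The RPP1 cluster on chromosome 3, another group of TIR-NBS-LRR genes, was represented by 4 genes, all tested. Against Col-0, edgeR called 2 of 4 lower in R493A, RPP1 and AT3G44630, where 1.51% of all tested genes were called lower. It called 1 of 4, RPP1, in w.tEDS1 (1.09% of all tested genes in either direction) and the same 2 of 4 in eds1-2 (1.44% lower). RPP1 had 21.8 ± 2.62 CPM in R493A, 27.8 ± 3.82 in w.tEDS1, 19.4 ± 2.75 in eds1-2 and 76.6 ± 27.8 in Col-0 (SD, n = 3 each). Against Col-0 its log2 fold change was −1.81 in R493A (SE 0.23, edgeR adjusted p = 0.00225), −1.46 in w.tEDS1 (SE 0.23, edgeR adjusted p = 0.0137) and −1.98 in eds1-2 (SE 0.23, edgeR adjusted p = 0.00138). The Col-0 libraries stood above all others, and against Col-0 replicate 3 alone the values were −1.38, −1.03 and −1.54 in the same order, that of w.tEDS1 no longer past the threshold, as also without w.tEDS1 replicate 1 or 3 and in the 6 libraries alone. AT3G44630 stood at −1.73, −1.43 and −1.88, and its calls in R493A and eds1-2 were kept in 7 and 8 of 16 alternative analyses. Against Col-0 replicate 3 alone its values in R493A and eds1-2 were −0.86 and −1.0, neither past the threshold. AT3G44400 stood at −1.25, −0.90 and −1.40 and AT3G44670 at −0.14, 0.17 and −0.26 in the same order, none past the threshold. In R493A against w.tEDS1, none of the 4 RPP1 cluster genes was called by edgeR (0 at an unadjusted p under 0.05, beside 4.6% of all tested genes), with log2 fold changes of −0.35 to −0.30. For SNC1 and RPP4 the corresponding Col-0 differences stood at −0.51 to 0.04. Whether the RPP1 and RPP4/SNC1 clusters differ was not tested.

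Of the 9 genes of the EDS1 module list, 2 were called lower in R493A than in w.tEDS1, where 0.208% of all tested genes were called lower. They were EDS1 (log2 fold change −2.54, SE 0.38, edgeR adjusted p = 0.0256) and AT5G66910 (−1.89, SE 0.30, edgeR adjusted p = 0.0311), which is NRG1.2, a helper receptor. The EDS1 call was kept in 9 of 16 alternative analyses, at −2.74 to −2.25, and lost without w.tEDS1 replicate 2 or 3 or any 1 R493A library, with the run as a covariate and in the main run alone. That of AT5G66910 was kept in 7 of 16, at −2.12 to −1.43, and lost without w.tEDS1 replicate 3 or any 1 R493A library, with limma-voom, the replicate block or the run as a covariate, in the main run alone and in the 6 libraries alone. RPS4 and RRS1, the receptor pair that recognises AvrRps4, and their paralogues gave 0 calls by edgeR in that comparison (0 at an unadjusted p under 0.05, again beside 4.6%), with log2 fold changes of −0.21 to 0.12.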

How the data were processed

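The authors deposited raw read counts per gene for 12 libraries on TAIR 10. TopHat2, HTSeq and limma are named, per the submitters' processing notes, without versions or settings. Per the labels' protocols, libraries were made with TruSeq v2, which does not mark strand. The 5 summary rows were left out, and each of the 12 columns was matched to its sample by name. The model was fitted in R 4.3.3 with edgeR 4.0.16 (filterByExpr, minimum count 10, TMM, quasi-likelihood, genotype only, all 12 libraries), compared in 6 pairs and adjusted by Benjamini-Hochberg over 18770 genes, with a threshold of 0.05 and a prior count of 0.125. Intervals are at 95% and cover the spread between pooled-plant libraries. Alternatives used DESeq2 1.42.0 and limma 3.58.1, among others. The fit was tested on simulated data. Positions, windows and sequences come from the RefSeq TAIR10.1 genome, which matched 31912 of 32678 identifiers, with alignments by BLAST 2.17.0. Named genes are every member, EDS1, up to 3 called genes per list and comparison, and the 5 genes most correlated with SNC1 and with RPP4. PAD4, the 4 root markers, BON1, AT2G14760, AT3G44400, AT3G44670 and the 5 genes outside the cluster that differed between R493A and all 3 other groups fall outside this rule. They were named after their values were seen. Members and lists were chosen with earlier results of these data known.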

Additional observations from a re-analysis of the deposited data

How the results depend on the processing

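The 3 members called in R493A against w.tEDS1 became 1 with the replicate block, in the main sequencing run alone, in the 6 libraries alone and without each single library (1 to 1). In R493A against eds1-2, DESeq2 called 2 in place of 1. The 3 called against Col-0 became 1 with the replicate block, in the main run alone, in the 6 libraries alone and with Col-0 replicates 1 and 2 left out, and 1 to 5 with single libraries left out, 5 without Col-0 replicate 3. In eds1-2 against Col-0 the count was 0 to 2, 2 without Col-0 replicate 3. AT4G16870 was the remaining call in each case of 1. SNC1 regulators against Col-0 numbered 5 in R493A, 5 in w.tEDS1 and 7 in eds1-2 with DESeq2, and 0 to 5, 0 to 3 and 0 to 7 with single libraries left out. In R493A they numbered 1 without the filter on low counts and 1 with Col-0 replicates 1 and 2 left out. In eds1-2, 0 of 2 calls held with limma-voom, the replicate block, the run as a covariate, the main run alone, Col-0 replicates 1 and 2 left out or the 6 libraries alone. Neighbours against Col-0 numbered 3 in R493A and 3 in eds1-2 with DESeq2, and 0 to 3 in R493A, 0 to 5 in w.tEDS1 and 0 to 3 in eds1-2 with single libraries left out. The causes were not tested. Counts under the alternatives are given without the share of all tested genes, so nothing is read from their size. Libraries of the same number did not pair, with a median correlation of deviations of −0.0754 over 18 pairs (−0.509 to 0.381). Single-gene values were followed through the alternative runs only for the members, EDS1, BAP2, AT1G14200, RPP1, AT3G44630 and AT5G66910. Among these genes, no value that passed the threshold over all 12 libraries changed direction under any alternative run. SNC1, RPP4 and RPP5, not called there, passed it against Col-0 without Col-0 replicate 3 in part of the comparisons and turned positive with Col-0 replicates 1 and 2 left out. AT4G16892, AT4G16910 and AT4G16920 had 3 to 33 reads per library, which limits their precision.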
